A study of Mus musculus with 12 samples.

Results

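The NRF2 antioxidant genes are 10 genes chosen by symbol: the transcription factor Nfe2l2 (the gene of NRF2), its inhibitor Keap1, and the antioxidant enzymes Nqo1, Gclm, Gclc, Txnrd1, Srxn1, Gsr, Prdx1 and Hmox1. A gene belonged if its symbol labelled a locus in the deposited files, and 9 of the 10 did, among 15125 loci listed in all and 9743 that entered the tests. Gsr had no locus under its own name. RNA of mouse splenic CD4 T cells was measured in 12 libraries, 3 in each of 4 groups: naive and activated cells of the genotypes KI and KIKO. Activation was stimulation for 16 h with Dynabeads that carry antibodies to CD3 and CD28, which engage the T cell receptor complex and its co-receptor CD28, and naive cells had none. The series concerns a dysfunctional proteasome in T cells. No label says what KI and KIKO stand for, so the altered gene, the driver of any deletion, the strain and the age of the mice are not given in the sources used here. Activated KIKO samples are titled T cells with no mention of CD4. No label says that replicates came from separate animals, so p-values measure the spread between these samples, which may be technical.

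NRF2 is made continuously and destroyed continuously: KEAP1 holds it to a CUL3 ubiquitin ligase, and the proteasome degrades it. Oxidants and electrophiles modify cysteines of KEAP1 and spare NRF2, which then enters the nucleus, pairs with a small MAF protein and binds antioxidant response elements, a site that the repressor BACH1 also occupies. In T cells, glutathione and thioredoxin, the reducing systems NRF2 supports, sustain the growth that follows stimulation of the receptor.

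Promoter sequence is shown only for members whose window held a match to the letters below. These were Srxn1, Gclm, Txnrd1 and Nfe2l2, whose RNA differed between the genotypes, and Prdx1, which did not pass the test in either genotype comparison. Keap1 and Nqo1 also differed between the genotypes, but their windows held no match and are not shown. The sequences come from RefSeq with coordinates in GRCm38.p6, and windows were at hand for 7 of the 10 members, 9 windows in all. Only the 250 bases before each annotated start were searched, on both strands. Capitals mark matches to the core of the antioxidant response element, TGACNNNGC, to the AP-1 type element TGANTCA, or to TGAGNNNGC, which differs from the first core by 1 letter and was added after the windows had been read.
Srxn1, chr2:152105346-152105507, plus strand: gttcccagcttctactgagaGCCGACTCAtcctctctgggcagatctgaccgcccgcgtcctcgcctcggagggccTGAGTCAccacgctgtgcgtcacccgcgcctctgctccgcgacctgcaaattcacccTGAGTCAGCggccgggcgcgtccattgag
Gclm, chr3:122245403-122245451, plus strand: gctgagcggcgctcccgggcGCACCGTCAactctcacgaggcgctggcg
Txnrd1, chr10:82859094-82859142, plus strand: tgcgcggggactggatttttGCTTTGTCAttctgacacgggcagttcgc
Nfe2l2, chr2:75704875-75704913, minus strand: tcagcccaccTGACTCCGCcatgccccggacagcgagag
Prdx1, chr4:116685349-116685494, plus strand: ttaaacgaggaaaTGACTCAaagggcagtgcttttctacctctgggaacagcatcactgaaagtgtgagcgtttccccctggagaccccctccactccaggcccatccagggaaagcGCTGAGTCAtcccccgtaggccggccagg
The Srxn1 stretch held 3 marked places, and in the one nearest the start TGANTCA and TGAGNNNGC overlap. In Prdx1 the marked run nearest the start is TGACNNNGC on the opposite strand and overlaps TGANTCA. Gclm, Nfe2l2 and 1 of 3 windows of Txnrd1 each held TGACNNNGC once. None of these letters was in the windows of Keap1 or Nqo1. Of 32851 RefSeq windows of the same length, 10.2% held TGACNNNGC, 6.75% held TGANTCA and 14.4% held TGAGNNNGC. A match describes letters only, and no binding was measured.

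Levels are in FPKM (read fragments per kilobase, relative to all mapped fragments) and are therefore per length. For each gene the FPKM of all transcript starts and of all transcript ends were summed, and the higher sum, or any single event above both, was its level. A gene not listed in a library was taken as 0 there, which is not evidence of silence. Read numbers are unknown, so no counting interval can be given. Differences were tested with limma on log2(FPKM + 1), a scale that understates the change of low genes, and a gene is said to have risen or fallen where its adjusted p over all tested loci was under 0.05. Locus spans below are the extent of the listed events in GRCm39.

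The libraries listed 9771 to 11102 loci. KIKO naive replicate 2 had 77789 listed events, against 91360 to 102077 in the others. Cd4 and Cd3e were listed in all libraries, Lck and Cd28 in none. The T cell markers' summed level was 1082 to 1277 FPKM in KI naive, 798 to 945 in KIKO naive, 1015 to 1209 in KI activated and 477 to 704 in KIKO activated cells; in bulk RNA, fewer cells of a type and less RNA per cell cannot be told apart. Of 17 myeloid and macrophage markers 9 were listed, and Itgam, Cd14, C1qa and Mpeg1 were listed in no library. Their sum was 1.32 to 1.99 FPKM in 9 of the libraries. It reached 215 in KIKO naive replicate 2 and 173 in KIKO activated replicate 2, mostly from S100a8, S100a9 and Lyz2, and it was 8.35 in KIKO activated replicate 1. Fcer1g and Tyrobp were also highest in these replicates 2. Cd68, Csf1r, Adgre1 and C1qb were at 0 in KIKO naive replicate 2, while KIKO activated replicate 2 had 1.83 FPKM of Csf1r and 0.73 of Adgre1. Cd68 was lower in KIKO naive than in KI naive cells, at -0.79 ± 0.23 (limma adjusted p = 0.0467). The part of these markers in the results below was not tested, and values without both replicates 2 are given where they bear on a result. B cell markers summed to 95.3 to 141 FPKM in 9 libraries and to 32.4 to 56.4 in KIKO activated cells, NK and CD8 markers to 11.6 to 38.2, and erythroid and platelet markers to at most 3.36.

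Srxn1 entered the tests only through the group in which it was high: it reached 1 FPKM in 4 libraries, 3 of them KIKO activated, so that it had to differ, and it is left out of the counts and medians here and given by its values. Hmox1 reached 1 FPKM in 6 libraries, 3 of them KIKO activated and 1 in each other group. In activated cells 7 of the other 8 listed members were higher in KIKO than in KI and none was lower. Over all tested loci, 20.7% were called higher and 19.3% lower in that comparison. The median difference of the 8 was 0.95 on the log2 scale, beside a median of 0.04 over all loci. In naive cells 2 members, Keap1 and Gclm, were higher in KIKO and none was lower, where 6.46% of all loci were called higher and 3.9% lower; the median difference of the 8 was 0.09 and that of all loci 0.05. An alternative chosen after seeing the data left out both replicates 2 of the KIKO cells. Its counts, with Srxn1 included, were 8 in activated and 2 in naive cells, as with all libraries. Of all loci, 4132 and 851 were called there. In that subset Srxn1 and Hmox1 met the minimum level in 3 libraries only through KIKO activated cells. Their calls in activated cells are therefore no support.

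**Figure D1:**
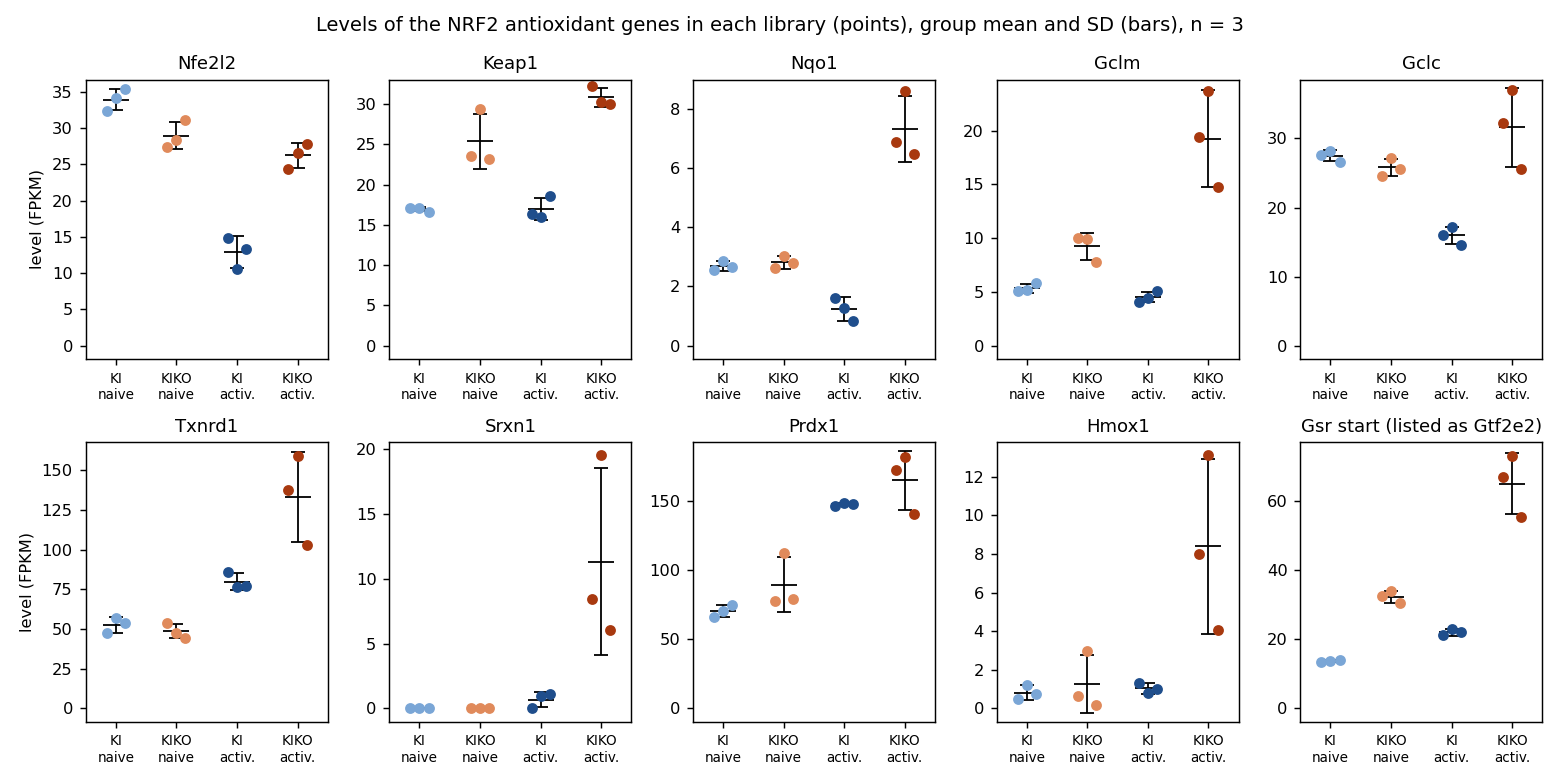
Level in FPKM (vertical axes, linear) of the 9 listed members and of the Gsr start event in each of the 12 libraries; points are libraries, the black bar is the group mean with its SD, n = 3. In activated cells every KIKO point lies above every KI point in each panel except Prdx1. The share of all loci with such a separation was not counted. Srxn1 entered the tests only through activated KIKO cells, and the Gsr start event was matched after its values had been seen. The separation in these panels is therefore no support.

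Nfe2l2 itself, at chr2:75534001-75534985 on the minus strand, was measured only through its transcript starts. KI naive libraries had 32.3, 34.1 and 35.3 FPKM and KIKO naive libraries 27.4, 28.4 and 31.0. After stimulation KI libraries had 14.9, 10.6 and 13.3 FPKM, and KIKO libraries 24.3, 26.6 and 27.8. The KI activated libraries were thus the lowest of all groups, and the KIKO activated ones overlapped only with KIKO naive. The RNA fell on stimulation in KI by 1.34 ± 0.11 (SE) on the log2 scale (limma adjusted p = 1.2e-06), whereas in KIKO the difference of -0.14 ± 0.11 did not pass (limma adjusted p = 0.352). KIKO exceeded KI by 0.98 ± 0.11 in activated cells (limma adjusted p = 4.5e-05), and in naive cells the difference was -0.22 ± 0.11 (limma adjusted p = 0.237), although there all KIKO libraries lay below all KI ones. One start exon of 278 bp carried 90.3 to 100% of the start FPKM in every library.

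Keap1, the substrate adaptor that delivers NRF2 to the CUL3 ligase, lies at chr9:21141363-21150622 on the minus strand. Its level was 17.0, 17.1 and 16.6 FPKM in KI naive and 23.5, 29.3 and 23.2 in KIKO naive cells. Activated KI libraries had 16.4, 16.0 and 18.5 FPKM and activated KIKO libraries 32.2, 30.3 and 30.0. KIKO libraries were above KI libraries in both states without overlap, while KI levels before and after stimulation overlapped. Keap1 was higher in KIKO by 0.55 ± 0.10 in naive cells (limma adjusted p = 0.00657) and by 0.83 ± 0.10 in activated cells (limma adjusted p = 6.5e-05). A rise on stimulation within KIKO of 0.28 ± 0.10 (limma adjusted p = 0.0384) lost its call under 11 of 25 alternatives, among them leaving out either of 2 KI naive libraries, where adjusted p was 0.0512 and 0.0519. Of its 3 listed start exons, the one of 251 bp ranged from 5.90 to 7.73 FPKM in KI naive and from 9.77 to 13.4 in KIKO naive cells, then from 6.31 to 10.2 in KI activated cells, and up to 15.0, again above every KI activated library, in KIKO activated cells.

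Gclc and Gclm encode the catalytic and the modifier subunit of glutamate-cysteine ligase, the first and limiting step of glutathione synthesis. Gclc, at chr9:77661812-77701767 on the plus strand, had 27.6, 28.2 and 26.6 FPKM in KI naive and 24.6, 27.2 and 25.6 in KIKO naive cells, which overlapped. It had 16.1, 17.2 and 14.6 FPKM in KI activated and 32.2, 37.0 and 25.6 in KIKO activated cells. The 3 KI activated libraries were the lowest of the 12. Gclc fell in KI on stimulation by 0.75 ± 0.12 (limma adjusted p = 1.7e-04), and KIKO exceeded KI in activated cells by 0.93 ± 0.12 (limma adjusted p = 9.4e-05).

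Gclm, at chr3:122039112-122060592 on the plus strand, was lower in level than its partner. It had 5.05, 5.16 and 5.79 FPKM in KI naive and 10.0, 9.93 and 7.82 in KIKO naive cells. Stimulated KI cells had 4.11, 4.45 and 5.05 FPKM and stimulated KIKO cells 19.4, 23.7 and 14.7. KIKO libraries stood above KI ones in both states, and the KIKO activated libraries were the highest of all. The difference was 0.69 ± 0.16 in naive cells (limma adjusted p = 0.0179) and 1.85 ± 0.16 in activated cells (limma adjusted p = 4.7e-06). The naive call was lost when any 1 of 4 naive libraries was left out, KI 1, KI 2, KIKO 1 or KIKO 2, with adjusted p from 0.0534 to 0.0653 and a difference of 0.63 to 0.67.

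Gsr encodes glutathione reductase, which returns oxidised glutathione to its reduced form. A start exon of 542 bp at chr8:34143266-34143807, plus strand, has the length of the first Gsr exon in GENCODE M21 but is listed under the neighbouring gene Gtf2e2; it was matched to Gsr by length, after its values had been seen. It had 13.4, 13.6 and 14.1 FPKM in KI naive and 32.7, 34.0 and 30.4 in KIKO naive cells. In activated cells it had 21.2, 23.2 and 22.0 FPKM in KI and 67.0, 73.0 and 55.5 in KIKO. No group overlapped another. The other start exons listed under Gtf2e2 reached at most 10.9 FPKM in any library and did not follow this order. Added to the tests as 1 more feature, the exon was higher in KIKO by 1.18 ± 0.10 in naive cells (limma adjusted p = 2.5e-05) and by 1.51 ± 0.10 in activated cells (limma adjusted p = 1.0e-06). Stimulation raised it in both genotypes, by 0.65 ± 0.10 in KI (limma adjusted p = 1.3e-04) and 0.98 ± 0.10 in KIKO (limma adjusted p = 1.8e-05). This feature is not counted among the 9.

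Txnrd1, the cytosolic thioredoxin reductase, lies at chr10:82695013-82723102 on the plus strand. KI naive libraries had 47.2, 57.1 and 53.8 FPKM and KIKO naive libraries 53.5, 47.6 and 44.5, which overlapped. KI activated libraries had 86.1, 76.4 and 77.1 FPKM and KIKO activated libraries 137, 159 and 103. Stimulation thus moved every library of both genotypes above the naive ones, and KIKO farther. The rise was 0.59 ± 0.14 in KI (limma adjusted p = 0.00322; 0.31 with adjusted p = 0.0689 under quantile normalization) and 1.42 ± 0.14 in KIKO (limma adjusted p = 1.5e-05). Activated KIKO cells exceeded activated KI cells by 0.71 ± 0.14 (limma adjusted p = 0.00189).

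Txnrd1 transcripts began mainly at an exon of 122 bp, at 43.7 to 55.4 FPKM in naive cells, 65.9 to 72.9 in KI activated and 96.1 to 147 in KIKO activated cells. A second start exon of 330 bp, downstream, had 8.84 to 12.9 FPKM in KI activated and 1.96 to 11.7 in KIKO activated cells. Its share of start FPKM was 11.6 to 14.9% in KI activated cells and between 1.42 and 8.00% in all other libraries, a description chosen after the values were seen and not tested. A skippable exon of 107 bp was included in 70.1 to 85.8% of its FPKM over the 12 libraries, with overlapping ranges in all groups. Between the activated genotypes the libraries did not overlap at the first start exon and overlapped at the second.

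Prdx1, a peroxiredoxin that reduces hydrogen peroxide with electrons from thioredoxin, was the most abundant member in every group. At chr4:116542741-116558019, plus strand, it had 66.3, 70.3 and 74.6 FPKM in KI naive and 77.5, 112 and 78.9 in KIKO naive cells. Activated libraries had 147, 149 and 148 FPKM in KI and 172, 181 and 140 in KIKO. Both genotypes rose on stimulation, by 1.06 ± 0.14 in KI (limma adjusted p = 3.2e-05) and by 0.88 ± 0.14 in KIKO (limma adjusted p = 2.9e-04). Between activated genotypes the libraries overlapped, and the difference of 0.15 ± 0.14 had a 95% interval of -0.15 to 0.45 (limma adjusted p = 0.428). In naive cells the difference was 0.32 ± 0.14 (limma adjusted p = 0.159), and without both replicates 2 it was 0.15. The highest naive value was in KIKO replicate 2, the library with the highest myeloid marker sum, mostly S100a8, S100a9 and Lyz2.

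Srxn1 encodes sulfiredoxin, which restores over-oxidised peroxiredoxins. At chr2:151947436-151951131 on the plus strand, none of the 6 naive libraries listed it. It was at 0, 0.953 and 1.10 FPKM in KI activated and at 8.41, 19.6 and 6.05 in KIKO activated cells. Every KIKO activated library thus lay above every other. The difference in activated cells, 2.79 ± 0.37, was the greatest of the 9 members, and it was 2.35 without both replicates 2. It is a description with no test. No change on stimulation is given for Srxn1, since both naive groups were listed at 0.

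Nqo1, a quinone reductase widely read as a reporter of NRF2, lies at chr8:108114149-108129838 on the minus strand. It had 2.55, 2.87 and 2.67 FPKM in KI naive and 2.61, 3.04 and 2.79 in KIKO naive cells. After stimulation KI libraries had 1.62, 1.27 and 0.834 FPKM, and KIKO libraries 6.88, 8.59 and 6.47. The naive groups overlapped, and the activated groups moved apart from them in opposite directions. Nqo1 fell in KI by 0.74 ± 0.16 (limma adjusted p = 0.00144) and rose in KIKO by 1.12 ± 0.16 (limma adjusted p = 1.6e-04). The difference between activated genotypes was 1.90 ± 0.16 (limma adjusted p = 4.2e-06), while that between naive genotypes was 0.04 with a 95% interval of -0.30 to 0.39 (limma adjusted p = 0.895).

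Hmox1 encodes the inducible haem oxygenase, which opens the haem ring and releases iron, and it is also abundant in macrophages. At chr8:75820178-75827217 on the plus strand, it had 0.468, 1.22 and 0.759 FPKM in KI naive and 0.635, 2.97 and 0.159 in KIKO naive cells. Activated KI libraries had 1.33, 0.786 and 0.992 FPKM and activated KIKO libraries 8.02, 13.1 and 4.05. The KIKO activated libraries were the 3 highest of the 12. Activated KIKO exceeded activated KI by 2.09 ± 0.43 (limma adjusted p = 0.0023). Within each KIKO group the library with most myeloid marker RNA, replicate 2, also had the highest Hmox1, and within KIKO activated cells the 3 libraries had the same order for both. KIKO activated replicate 3 had a marker sum of 1.57 FPKM and 4.05 FPKM of Hmox1; the highest Hmox1 level of a KI activated library was 1.33 FPKM. Without both replicates 2 the difference was 1.74. In that subset Hmox1 met the minimum level in 3 libraries only through KIKO activated cells, so no test is given for it.

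**Figure D2:**
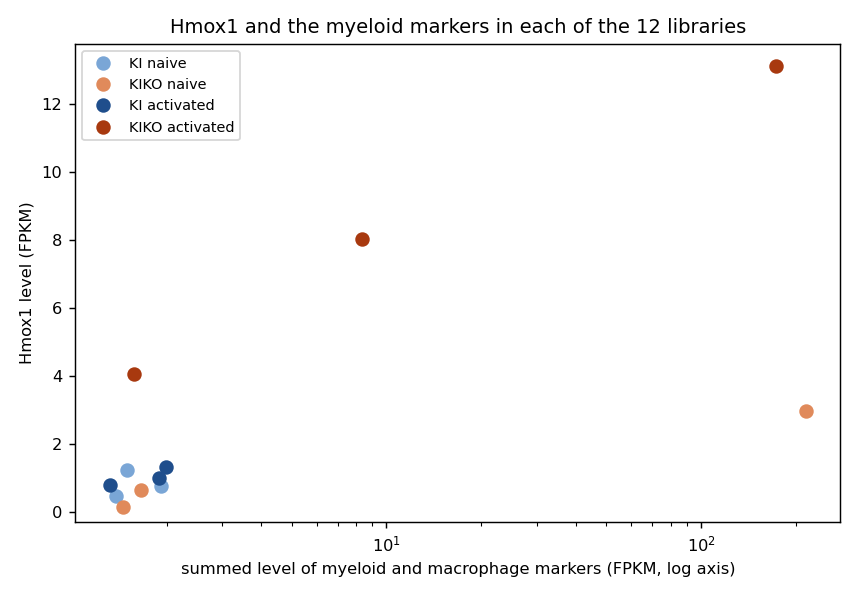
Hmox1 level in FPKM (vertical axis, linear) against the summed level of the listed myeloid and macrophage markers in FPKM (horizontal axis, log scale), one point per library, coloured by group. KIKO naive replicate 2 and KIKO activated replicate 2 lie far to the right, and the KIKO activated library with the lowest marker sum has 4.05 FPKM of Hmox1.

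**Figure D3:**
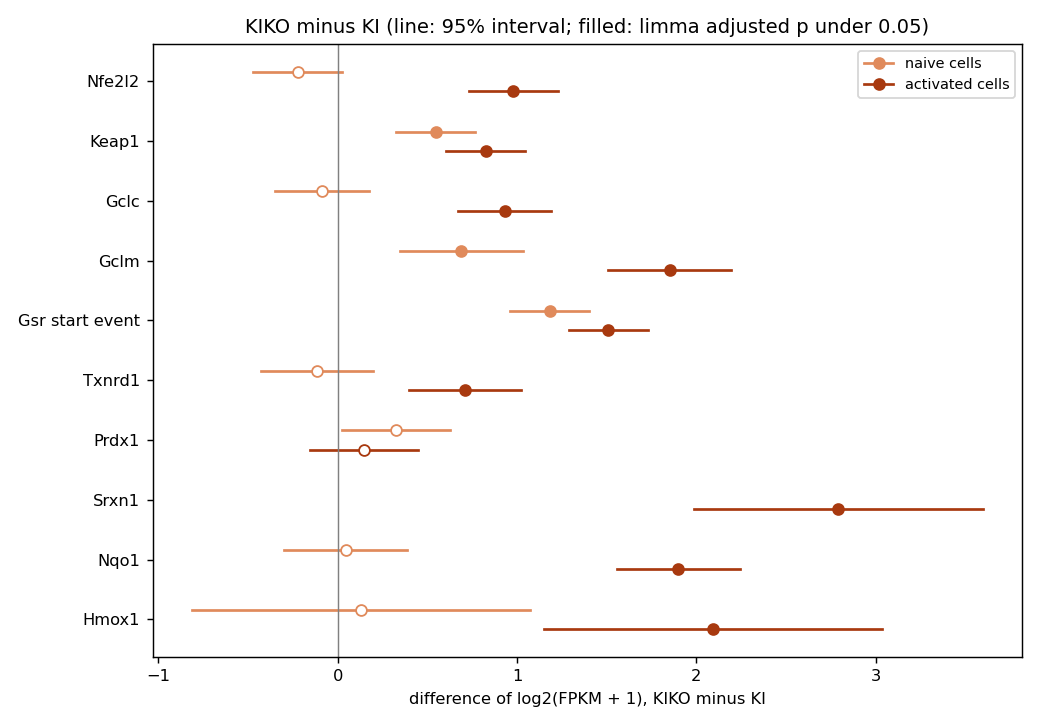
Difference of log2(FPKM + 1), KIKO minus KI (horizontal axis), for each member in naive and in activated cells; the line is the 95% interval and filled points have a limma adjusted p under 0.05. In activated cells all members except Prdx1 are filled, in naive cells Keap1, Gclm and the Gsr start event. Srxn1 has no naive point because all naive libraries were at 0. It entered the tests only through activated KIKO cells, so its filled point is no support.

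Stimulation changed the members differently in the genotypes. In KI cells Txnrd1 and Prdx1 rose and Nfe2l2, Nqo1 and Gclc fell, where 32.2% of all loci were called higher and 29.5% lower, so that 2 and 3 of the 8 members other than Srxn1 are close to the shares of all loci. In KIKO cells 6 of the 8 rose and none fell, where 25.1% of all loci were higher and 22.2% lower; the 6 were Keap1, Nqo1, Gclm, Txnrd1, Prdx1 and Hmox1. The median changes of the 8 were -0.10 in KI and 0.93 in KIKO, beside -0.01 and 0.00 over all loci. Gclc moved in KIKO by 0.27 ± 0.12, which did not pass (limma adjusted p = 0.0842). KI activated libraries enter both the activated genotype comparison and the KI stimulation comparison, so the 2 are not independent of each other.

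**Figure D4:**
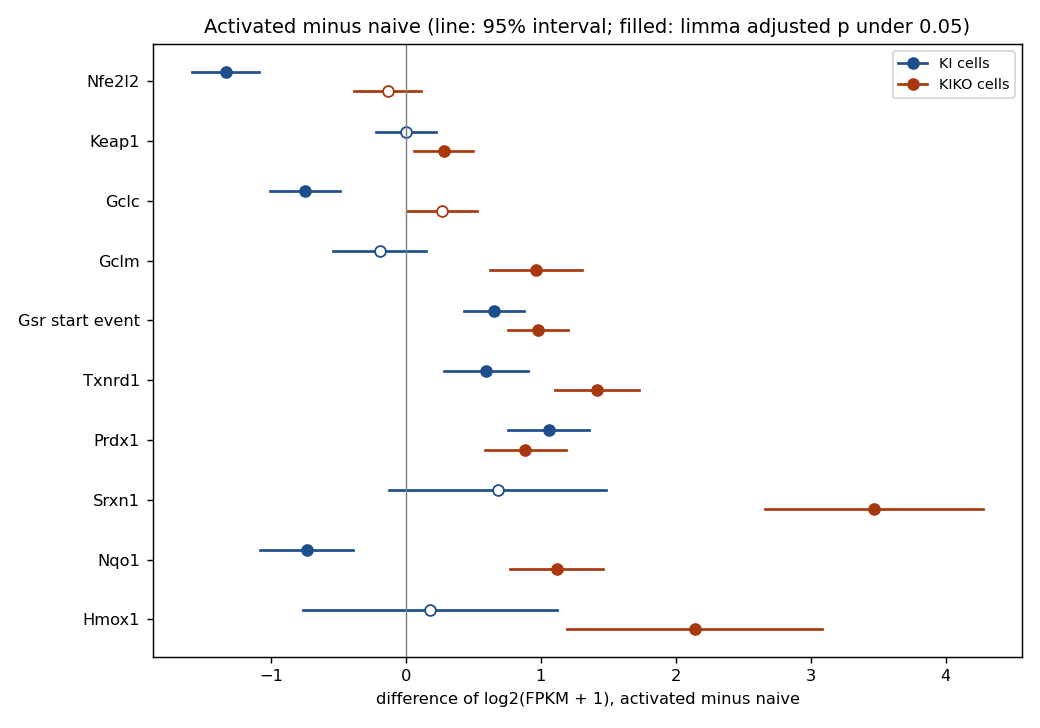
Difference of log2(FPKM + 1), activated minus naive (horizontal axis), for each member in KI and in KIKO cells; the line is the 95% interval and filled points have a limma adjusted p under 0.05. Nfe2l2, Gclc and Nqo1 lie left of 0 in KI, and none of the KIKO points left of 0 is filled. Srxn1 entered the tests only through activated KIKO cells, so its points are no support.

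The test of the difference itself, the interaction of genotype and stimulation, was higher for 6 of the 8 members other than Srxn1 and lower for none, where 8.99% of all loci were called higher and 11.6% lower. Their median interaction was 1.09, beside -0.01 over all loci. Nqo1 had 1.86 ± 0.22 (limma adjusted p = 3.9e-04), from a fall in KI and a rise in KIKO. Nfe2l2 had 1.20 ± 0.16 (limma adjusted p = 7.5e-04), from a fall in KI and a change in KIKO that did not pass. Gclm had 1.16 ± 0.22, Gclc 1.02 ± 0.17 and Txnrd1 0.83 ± 0.20, with limma adjusted p of 0.00411, 0.00204 and 0.014. For Srxn1 the interaction repeats its activated difference, because both naive groups were at 0. The call for Hmox1, 1.96 ± 0.61 (limma adjusted p = 0.0403), was lost under 14 of 23 alternatives. Keap1, at 0.28 ± 0.14 with a 95% interval of -0.03 to 0.59 (limma adjusted p = 0.196), and Prdx1, at -0.17 ± 0.20 with an interval of -0.60 to 0.25 (limma adjusted p = 0.574), did not pass. Nor did the Gsr start event, at 0.33 ± 0.14 with an interval of 0.015 to 0.64 (limma adjusted p = 0.13). For Keap1 and the Gsr start event the genotypes already stood apart in naive cells, as they did for Gclm, whose interaction passed.

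The 3 KIKO activated libraries differed among themselves in a shared order. Replicate 2 was highest and replicate 3 lowest for Nqo1, Gclm, Gclc, Txnrd1, Srxn1, Prdx1 and Hmox1, while for Nfe2l2 replicate 3 was highest and for Keap1 replicate 1. The summed T cell markers ran the other way, at 553, 477 and 704 FPKM in replicates 1, 2 and 3. This is a description of 3 libraries and was not tested.

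Srxn1 was the member with the greatest difference, and the 5 loci whose log2(FPKM + 1) followed it most closely over the 12 libraries were Tbx21 (Pearson r = 0.98), Ptp4a1 (0.98), Fosl1 (0.97), Zfp365 (0.97) and Surf4 (0.97). These correlations describe points that share 4 groups and their libraries. Fosl1, an AP-1 subunit, had at most 1.41 FPKM outside KIKO activated cells and 34.2, 34.7 and 8.10 FPKM within them. Tbx21, the T helper 1 transcription factor T-bet, had at most 0.38 FPKM outside that group and 3.32, 4.97 and 2.25 FPKM within it. Fosl1 and Tbx21, like Srxn1, met the minimum level in 3 libraries only through KIKO activated cells. Their r with Srxn1 is therefore no support for a link. Among the other members r with Srxn1 was 0.92 for Txnrd1, 0.89 for Hmox1 and 0.81 for Gclm, and it was 0.42 for Gclc and -0.07 for Nfe2l2.

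Of 14 genes for partners and regulators of NRF2, 13 were listed and tested. In activated cells 6 were higher in KIKO and 3 lower, with a median difference of 0.31; over all loci 20.7% were higher and 19.3% lower, so that 3 of 13 lower is near the share of all loci. In naive cells 2 were higher and none lower, with a median of 0.11, where 6.46% of all loci were higher and 3.9% lower. Sqstm1 encodes p62, which sequesters KEAP1 and is itself an NRF2 target. It had 130 to 150 FPKM in KI naive, 235 to 285 in KIKO naive, 80.0 to 100 in KI activated and 400 to 523 in KIKO activated cells. No group overlapped another, and KIKO exceeded KI by 0.90 ± 0.13 in naive (limma adjusted p = 0.00146) and by 2.39 ± 0.13 in activated cells (limma adjusted p = 2.2e-07).

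Bach1, the repressor that competes with NRF2 for its sites, had 13.4 to 15.4 FPKM in KI naive and 17.8 to 18.4 in KIKO naive cells. It had 2.11 to 3.06 FPKM in KI activated and 13.8 to 16.5 in KIKO activated cells. Bach1 fell on stimulation in KI by 2.05 ± 0.12 (limma adjusted p = 9.1e-08), while its change of -0.23 in KIKO did not pass (limma adjusted p = 0.123), and its interaction was 1.82 ± 0.17 (limma adjusted p = 1.4e-04). Mafg, a small MAF partner of NRF2, had 24.9 to 32.6 FPKM in KI activated and 62.4 to 72.6 in KIKO activated cells against 51.8 to 61.6 in naive cells; its interaction was 1.09 ± 0.15 (limma adjusted p = 8.0e-04). Nfe2l2, Bach1 and Mafg thus all had their lowest levels in KI activated cells, but Bach1 and Mafg were chosen by their small p. Bach2, of the same list, had a mean of 22.0 FPKM in KI activated and 17.1 in KI naive cells. Mafk had means of 11.8 and 12.7 FPKM in these groups and Maff 2.37 and 2.52, with overlapping libraries. Nfe2l1, the related factor that raises proteasome genes, was higher in activated KIKO by 0.51 ± 0.12 (limma adjusted p = 0.00443). Lower in activated KIKO were Cul3, the ligase scaffold, at -0.20 (limma adjusted p = 0.0442), Dpp3, a KEAP1 binder, at -0.29 (limma adjusted p = 0.0353), and Brca1, an NRF2 binder, at -0.66 (limma adjusted p = 0.0417). These 3 calls were not made when libraries were rescaled to an equal sum, where the list gave 7 higher and 0 lower.

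Of 27 other genes known as NRF2 targets 21 were tested. For 3 of them, Slc7a11, Osgin1 and Pir, the minimum level was met in 3 libraries only through 1 group. In activated cells 10 of the other 18 were higher in KIKO and 1 lower, beside 20.7% and 19.3% of all loci, with a median of 0.61. In naive cells 2 of the 18 were higher and 1 lower, beside 6.46% and 3.9% of all loci, with a median of 0.09. Without both replicates 2, 18 entered the tests and 10 were higher and 1 lower in activated cells, with a median of 0.52. Slc48a1, a haem transporter, was at 10.7 to 14.6 FPKM in KI activated and 35.8 to 52.8 in KIKO activated cells, a difference of 1.77 ± 0.14 (limma adjusted p = 3.4e-06). Fth1, the heavy chain of the iron store ferritin, was at 319 to 368 FPKM in KI activated and 613 to 739 in KIKO activated cells (0.99 ± 0.11, limma adjusted p = 3.8e-05). Esd, S-formylglutathione hydrolase, was at 59.4 to 65.1 FPKM in the former and 132 to 265 in the latter (1.59 ± 0.18, limma adjusted p = 4.4e-05), and Abhd4 differed by 1.74 ± 0.18 (limma adjusted p = 1.6e-05). Libraries of the activated genotypes did not overlap for these genes, which were chosen by their small p.

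Slc7a11, the cystine importer, was chosen after its values were seen: it was listed only in KIKO activated cells, at 2.44, 6.92 and 1.25 FPKM, again highest in replicate 2. It entered the tests only through that group, so no test is given. Abcc4, an exporter, went against the list at -0.52 ± 0.16 in activated cells (limma adjusted p = 0.0202). Ephx1, microsomal epoxide hydrolase, was lower in KIKO naive cells, at -0.82 ± 0.16 (limma adjusted p = 0.00811), and its interaction was 1.45 ± 0.22 (limma adjusted p = 0.00136). G6pdx, the entry enzyme of the pentose phosphate pathway that supplies NADPH, rose on stimulation by 1.26 ± 0.16 in KI and 1.45 ± 0.16 in KIKO (limma adjusted p = 2.2e-05 and 2.5e-05), and differed by 0.05 ± 0.16 between activated genotypes (limma adjusted p = 0.835).

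**Figure D5:**
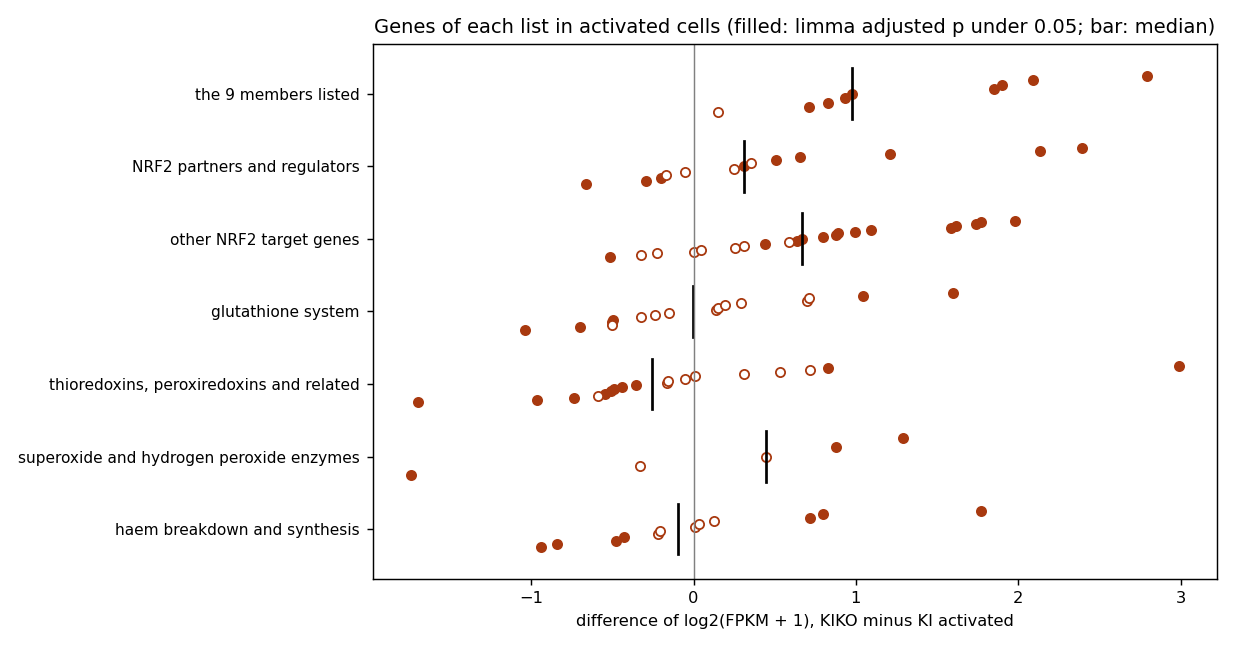
Difference of log2(FPKM + 1), KIKO minus KI in activated cells (horizontal axis), of each tested gene of each list (rows); filled points have a limma adjusted p under 0.05 and the black bar is the median. All 9 members, Srxn1 included, lie at a median of 0.98, all 21 tested other NRF2 targets at 0.67, and the thioredoxin and peroxiredoxin list at -0.26. Without the genes that met the minimum level only through 1 group, the first 2 medians were 0.95 and 0.61.

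Lists of the same redox systems without the members are set beside the shares of all loci in activated cells, 20.7% higher and 19.3% lower. In the glutathione system 16 genes were tested and in activated cells 2 were higher and 4 lower in KIKO, with a median of -0.01, which turned to 0.12 on rescaling to an equal sum. These counts are near the shares of all loci, and 10 of the 16 genes did not pass. Slc3a2, the partner chain of SLC7A11 and of other amino acid carriers, was at 58.7 to 69.4 FPKM in KI activated and 141 to 260 in KIKO activated cells (1.60 ± 0.17, limma adjusted p = 2.1e-05). Glrx, a glutaredoxin, was higher by 1.04 ± 0.12 (limma adjusted p = 3.9e-05). Gpx1, the abundant glutathione peroxidase, was at 174 to 205 FPKM in KI activated and 85.6 to 102 in KIKO activated cells, lower, at -1.04 ± 0.10 (limma adjusted p = 9.5e-06). Glrx5, a mitochondrial glutaredoxin, was lower, at -0.70 ± 0.11 (limma adjusted p = 4.6e-04).

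Of 18 thioredoxins, peroxiredoxins and related genes, 2 were higher and 8 lower in activated KIKO cells, with a median of -0.26, beside 20.7% higher and 19.3% lower over all loci. In naive cells 1 was higher and none lower, beside 6.46% and 3.9%. Sesn2, a stress-induced sestrin, was at 2.64 to 4.61 FPKM in KI activated and 24.6 to 50.8 in KIKO activated cells (2.99 ± 0.29, limma adjusted p = 1.3e-05). Selenoh was lower, at -1.70 ± 0.29, the mitochondrial thioredoxin Txn2 at -0.74 ± 0.13, and Prdx2, a cytosolic peroxiredoxin, at -0.49 ± 0.10, with limma adjusted p of 6.6e-04, 9.0e-04 and 0.00148.

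Among 5 tested enzymes of superoxide and hydrogen peroxide, 2 were higher and 1 lower in activated KIKO cells, and 1 was higher and 1 lower in naive cells; with 5 genes these counts are not read against the shares of all loci. Sod1, the cytosolic superoxide dismutase, was at 200 to 230 FPKM in KI naive, 335 to 486 in KIKO naive, 265 to 313 in KI activated and 630 to 770 in KIKO activated cells. It was higher in KIKO by 0.85 ± 0.14 in naive (limma adjusted p = 0.00381) and by 1.29 ± 0.14 in activated cells (limma adjusted p = 3.0e-05). Catalase, Cat, which is also on the NRF2 target list, was at 20.4 to 23.9 FPKM in KI activated and 37.4 to 42.8 in KIKO activated cells (0.88 ± 0.11, limma adjusted p = 8.7e-05). Ncf4, a subunit of the phagocyte NADPH oxidase, was lower in KIKO, at -0.78 ± 0.18 in naive (limma adjusted p = 0.0208) and -1.74 ± 0.18 in activated cells (limma adjusted p = 2.3e-05). Of 12 genes of haem breakdown and synthesis, 3 were higher and 4 lower in activated KIKO cells, not far from the 20.7% and 19.3% of all loci. Beside Slc48a1, which is on the NRF2 target list too, Ppox, a late enzyme of haem synthesis, was higher by 0.72 ± 0.13, and Alad, an early enzyme of the same pathway, was lower, at -0.84 ± 0.16, with limma adjusted p of 0.00124 and 0.00147.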

How the data were processed

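RNA was measured in 12 libraries, 3 for each of 4 groups taken from the sample titles. Poly(A) RNA was made into stranded libraries, per the labels' protocols. FastQC 0.11.9, cutadapt 2.9 and HISAT2 2.2.0 are named in the submitters' processing notes, with the builds GRCm39 and mm10. The software behind the FPKM was not given in the sources used here. Values deposited by the authors are FPKM per transcript event, such as a start, an end or a skipped exon. Read numbers are not recoverable here, so depth is unknown, and 3 libraries a group limit the precision.

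Duplicate lines of an event were dropped, and the level of a locus was the largest of summed starts, summed ends and the largest single event. Loci with at least 1 FPKM in 3 libraries were tested as log2(FPKM + 1), with a pseudocount of 1, by limma 3.58.1 in R 4.3.3: 4 group means, an intensity trend, two-sided moderated tests and Benjamini-Hochberg adjustment over 9743 loci, called under 0.05. The procedure was tested on simulated data. Exon lengths of the member loci were compared with GENCODE M21. Members, lists and tests were chosen with earlier results of these data known, so nothing here is independent support for them. Named were all members, up to 4 genes of each list with the smallest p in a comparison, called genes that went against their list, and the 5 loci most like Srxn1; Maff is counted but not described, and 1 gene of the haem list is not reported here by name. Alternatives changed the pseudocount, the filter, the scaling, the events used, the model and the libraries.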

Additional observations from a re-analysis of the deposited data

Results flagged for a closer look

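For 7 members, Srxn1 among them, the genotype difference in activated cells was larger than that in naive cells by limma's test of the interaction. Over all loci 8.99% were called higher and 11.6% lower in that test. The excess on the log2(FPKM + 1) scale was 1.20 for Nfe2l2, 1.86 for Nqo1, 1.16 for Gclm, 1.02 for Gclc, 0.83 for Txnrd1 and 1.96 for Hmox1, with limma adjusted p of 7.5e-04, 3.9e-04, 0.00411, 0.00204, 0.014 and 0.0403. For Srxn1 it was 2.79. The library values of each gene are given above. The call for Hmox1 was lost under 14 of 23 alternatives. The value for Srxn1 rests on naive groups that were both at 0, and Srxn1 entered the tests only through activated KIKO cells, so its call is no support.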

How the results depend on the processing

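Leaving Srxn1 aside, 7 members were higher in activated KIKO cells. Apart from a required log2 difference of at least 1, they kept direction and call under every alternative in which they were tested. These alternatives included the removal of each library. With a level of at least 5 FPKM 7 were called, since Hmox1 was not tested, and with transcript ends only 6, since Nfe2l2 and Txnrd1 were not. At 5 FPKM Nqo1 entered the tests only through KIKO activated cells, so its call there is no support. The same held for Hmox1 with transcript starts only and without both replicates 2 of the KIKO cells. It also held for Hmox1 without KI naive replicate 2, KIKO naive replicate 2 or KI activated replicate 1. All counts of members called in this section include Srxn1 unless it is set aside. Its call is no support, because it entered the tests only through activated KIKO cells. Leaving out 1 library gave 1 to 2 members called in naive cells, and 493 to 1166 loci instead of 1009. The count of loci fell most without KI naive replicate 1, 2 or 3 (493, 557 and 531). Requiring a log2 difference of at least 1 left 0 members in naive cells, 3 in activated cells, 0 for stimulation in KI, 1 for stimulation in KIKO and 0 for the interaction, and 16, 151, 977, 242 and 25 loci. With transcript ends only, 3 members were called for stimulation in KI instead of 5 and 4 for the interaction instead of 7, and 553, 2309, 3583, 2746 and 1114 loci against 1009, 3898, 6013, 4609 and 2010; the cause was not tested. The interaction had no fit on 2 groups.

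Signs turned only where no call stood. Nqo1 in naive cells was -0.0093 with median-ratio scaling and -0.064 with quantile normalization, and Gclc there was 0.0056 with an equal sum. Hmox1 in naive cells was -0.047 with a pseudocount of 0.1 and ranged from -0.38 (without KIKO naive replicate 2, with or without KIKO activated replicate 2) to 0.51 when 1 library was left out. Keap1 on stimulation in KI was -0.0050 with median-ratio scaling, -0.089 with quantile normalization, -0.14 with an equal sum and -0.044 with starts only, and ranged from -0.061 to 0.039 when 1 library was left out. Prdx1 in naive cells was called with an equal sum (0.42), Gclc on stimulation in KIKO without KIKO activated replicate 3 (0.41), and the Keap1 interaction without KIKO naive replicate 2.

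Same-numbered deviations correlated at -0.03 to 0.12 between compared groups, which cannot settle whether replicate numbers pair the libraries. S100a9 was at 110 FPKM in KIKO naive replicate 2 and 92.8 in KIKO activated replicate 2, against at most 3.69 elsewhere. Gzma was at 8.01 and 7.57 FPKM in the same libraries and at 0 elsewhere. A shared source of same-numbered libraries was not tested. With the replicate block, 2, 8, 5, 6 and 7 members were called in the 5 comparisons against 2, 8, 5, 7 and 7, Keap1 on stimulation in KIKO being the one lost. An equal sum moved the median of all loci to 0.13 in naive and 0.15 in activated genotype comparisons and to -0.13 for stimulation in KI. Of the loci called, 62.3% were higher in KIKO naive cells and 51.8% in KIKO activated cells; the shares were 44.2 and 45.4% with median-ratio scaling, 48.9 and 49.4% with quantile normalization, and 81.0 and 64.9% with an equal sum.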
